A study of Mus musculus and Homo sapiens with 24 samples.

Results

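The urea cycle and the enzymes that feed it from glutamate and glutamine were followed through 9 genes in HepG2 cells, an established line grown from a human liver tumor. The genes were taken by symbol from a table of 28278 genes: CPS1, OTC, ASS1, ASL, ARG1 and ARG2 of urea synthesis and arginine breakdown, and GLUD1, GLS2 and GLUL of glutamate and glutamine metabolism. All 9 symbols were found. The study asked how estrogen and a hypoxia-like state act on liver cells, alone and together. Control cells were labelled only as control, and the labels name no vehicle. CoCl2 cells received 50 μM CoCl2, estrogen cells received 25 nM β-estradiol, and CoCl2+estrogen cells received both, in each case for 4 h. RNA was sequenced from 3 libraries of each of the 4 groups, 12 in all. The labels do not say whether the 3 libraries of a group came from separate cultures, so the p-values measure the spread between these libraries, which may be partly technical. All of them come from 1 cell line.

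The liver disposes of ammonia through the urea cycle, which is strongest in the hepatocytes around the portal vein. CPS1 joins ammonia and bicarbonate into carbamoyl phosphate and OTC couples it to ornithine, both inside mitochondria. ASS1, ASL and ARG1 then work in the cytosol, and ARG1 splits arginine into urea and ornithine. ARG2 is a mitochondrial arginase found mainly outside the liver. GLS2, the liver form of glutaminase, and GLUD1, glutamate dehydrogenase, set ammonia free from glutamine and glutamate in mitochondria. GLUL, glutamine synthetase, runs the other way and binds ammonia into glutamine, in normal liver mostly around the central vein. HepG2 cells are known for making little urea.

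The deposited values were estimated read counts that summed to between 13592629 and 21701479 per library. Levels are given as CPM, counts relative to library size, scaled over the 12 libraries by the trimmed mean of M values (TMM). Without transcript lengths they were not compared between genes. All 8 hepatocyte markers checked (ALB, APOA1, APOB, TTR, SERPINA1, FGB, HNF4A and AFP) were above 1 CPM on average. Their summed level ran from 25722 to 28158 CPM in control and from 27764 to 29789 CPM in CoCl2 cells, but from 14503 to 15923 CPM in estrogen and from 15736 to 16491 CPM in CoCl2+estrogen cells. The hepatocyte markers therefore moved with the estrogen groups, as did most results below, and their part in those results was not tested. The part of the other marker lists given next was not tested either. Among the markers of other cell types, PTPRC, CD3E, COL3A1 and DCN had 0 counts in every library. The summed stellate cell and fibroblast markers, 2 of 4 above 1 CPM, ran from 20.04 to 29.8 CPM without estrogen and from 7.19 to 8.87 CPM with it, and the cholangiocyte markers, 2 of 3 above 1 CPM, from 870 to 1039 CPM without and from 1038 to 1367 CPM with it. The members of these 2 lists did not move alike. From control to estrogen cells, mean COL1A1 went from 20.8 to 1.15 CPM and PDGFRB from 6.62 to 7.58 CPM. Mean SOX9 went from 444 to 922 CPM, KRT19 from 451 to 444 CPM and KRT7 from 1.23 to 0.319 CPM. Blood and immune markers, 2 of 5 above 1 CPM, ran from 1109 to 1269 CPM without estrogen and from 839 to 1047 CPM with it. Endothelial markers, 1 of 3 above 1 CPM, ran from 0.808 to 1.63 CPM without and from 1.57 to 3.22 CPM with it. Among these, mean CDH5 went the other way, from 0.173 CPM in control to 0 in estrogen cells. In bulk RNA, less RNA of a kind per cell and fewer cells that make it cannot be told apart.

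**Figure D1:**
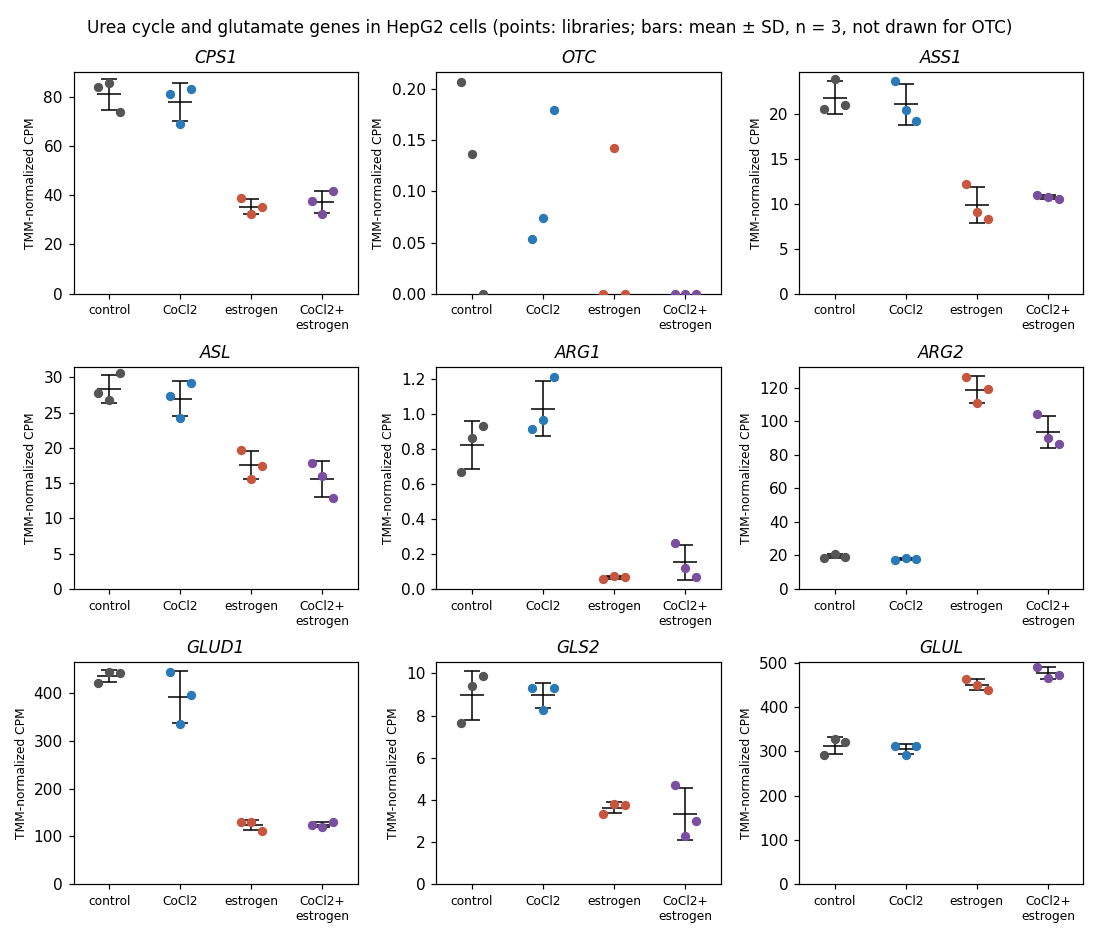
TMM-normalized CPM of the 9 genes (vertical axis, from 0, a scale for each gene) in the 3 libraries of each group (horizontal axis), with points for libraries and bars for the mean ± SD (n = 3, left out for OTC). Estrogen and CoCl2+estrogen libraries sat below the other 6 for CPS1, ASS1, ASL, ARG1, GLUD1 and GLS2 and above them for ARG2 and GLUL. Over all tested genes, 71.9% did not overlap, in either direction, between estrogen and control libraries. The share was 69.1% for CoCl2+estrogen against control and 66.0% for CoCl2+estrogen against CoCl2. It was not computed for all libraries with estrogen against all without it.

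CPS1, the gene of the enzyme that admits ammonia to the cycle, had 83.7, 85.5 and 73.8 CPM in the control libraries and 38.7, 32.4 and 35.0 CPM in the estrogen libraries. It had 81.1, 68.8 and 83.2 CPM in CoCl2 cells, and 37.6, 32.5 and 41.5 CPM in CoCl2+estrogen cells. The 6 libraries with estrogen lay below the 6 without it, while the ranges of control and CoCl2 overlapped, as did those of estrogen and CoCl2+estrogen. Separation of estrogen from control libraries, here and for the genes below, was common. It was seen, in either direction, in 71.9% of all tested genes. The share for all 6 libraries with estrogen against all 6 without it was not computed. In estrogen against control cells CPS1 fell, with a log2 change of -1.21 (standard error, SE, 0.08, adjusted p = 4.58e-09), to 43.3% of control. Adjusted p-values here and below come from edgeR's quasi-likelihood fit over all tested genes of a comparison, and genes at 0.05 or less are called.

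OTC, the other mitochondrial enzyme gene of the cycle, was at the limit of detection. It had 4, 3 and 0 counts in the control libraries, 1, 1 and 4 in CoCl2, 0, 2 and 0 in estrogen and 0 in all 3 CoCl2+estrogen libraries. None of these exceeded 5 counts, so OTC was not tested in any comparison. The 0 counts of the CoCl2+estrogen group allow a level of up to 0.0649 CPM (3 counts over the group, counting error only). Against the 7 counts in control the exact 95% counting interval of the CoCl2+estrogen level ran from 0 to 87.7% of control, and against the 6 counts in CoCl2 from 0 to 99.6%. Control and CoCl2+estrogen libraries overlapped at 0, and CoCl2 and CoCl2+estrogen libraries did not overlap, on 1, 1 and 4 counts against 0. Over all tested genes 66.0% did not overlap between CoCl2 and CoCl2+estrogen libraries. Against the 2 counts in estrogen cells, the interval of the CoCl2+estrogen level ran from 0 to 530% and included no difference. For estrogen against control the interval, from 3.67% to 190.4%, included no difference.

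ASS1 makes argininosuccinate and is often described as the rate-limiting step of arginine synthesis. It had 20.6, 23.9 and 21.0 CPM in control, 12.2, 9.08 and 8.34 CPM in estrogen, 23.6, 20.4 and 19.2 CPM in CoCl2, and 10.997, 10.8 and 10.5 CPM in CoCl2+estrogen libraries. The estrogen and CoCl2+estrogen ranges overlapped each other and lay below both groups without estrogen. Under estrogen ASS1 fell, with a log2 change of -1.15 (SE 0.13, adjusted p = 1.58e-06). The gene has processed pseudogenes elsewhere in the genome, so some of its reads could have been placed on copies.

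ASL, which splits argininosuccinate into arginine and fumarate, showed the smallest fall of the tested cycle genes in estrogen cells. It had 27.8, 26.8 and 30.6 CPM in control, 27.4, 24.3 and 29.2 CPM in CoCl2, 19.7, 15.7 and 17.4 CPM in estrogen, and 17.8, 16.1 and 12.9 CPM in CoCl2+estrogen libraries. Groups with and without estrogen did not overlap. ASL fell by 0.70 on that scale (SE 0.10, adjusted p = 1.55e-05), to 61.6% of control, with a 95% interval of the log2 change from -0.91 to -0.49.

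ARG1, the cytosolic liver arginase, was barely expressed. It had 13, 19 and 16 counts in the control libraries, 17, 13 and 27 in CoCl2, 1, 1 and 1 in estrogen, and 4, 2 and 1 in CoCl2+estrogen libraries. In CPM these were 0.672 to 0.934 in control and 0.0565 to 0.0715 in estrogen cells, and the groups with and without estrogen did not overlap. Scaled for library size, the 3 counts in estrogen cells were 7.93% of the control level from 48 counts, with an exact 95% counting interval from 1.58% to 24.6%. The 7 counts in CoCl2+estrogen cells were 18.4% of control, with an interval from 7.04% to 41.0%. The fitted log2 change under estrogen, -3.53 (SE 0.66, adjusted p = 0.0002), depends on how the model treats such low counts. ARG1 passed the filter of more than 5 counts only through the groups where it was higher.

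ARG2, the mitochondrial arginase, went the opposite way. It had 18.4, 20.9 and 19.3 CPM in control and 127, 111 and 119 CPM in estrogen libraries. CoCl2 libraries held 17.4, 18.4 and 17.8 CPM, and CoCl2+estrogen libraries 104, 90.2 and 86.4 CPM. No pair of groups neighboring in level overlapped, although the highest CoCl2 library, at 18.40 CPM, was close to the lowest control library, at 18.44 CPM. Under estrogen ARG2 rose, with a log2 change of 2.59 (SE 0.08, adjusted p = 5.35e-13), to 6.02-fold of control. Its log2 change was higher than that of 95.7% of all tested genes.

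GLUD1 interconverts glutamate and α-ketoglutarate, releasing or binding ammonia. It had 423, 445 and 442 CPM in control, 445, 336 and 397 CPM in CoCl2, 130.1, 130.0 and 111 CPM in estrogen, and 124, 119 and 130 CPM in CoCl2+estrogen libraries. It showed the deepest fall of the tested genes other than ARG1, with a log2 change of -1.83 under estrogen (SE 0.07, adjusted p = 5.09e-12), to 28.1% of control, and only 5.76% of all tested genes had a lower log2 change. GLUD2 is a near-identical intronless copy of GLUD1, and the deposited counts of both were split in fractions, so the level of each is uncertain. The ratio of GLUD1 to GLUD2 counts stayed between 2.85 and 3.57 in the 12 libraries.

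GLS2 had 7.65, 9.38 and 9.86 CPM in control, 9.32, 8.27 and 9.30 CPM in CoCl2, 3.33, 3.79 and 3.75 CPM in estrogen, and 4.70, 2.30 and 3.01 CPM in CoCl2+estrogen libraries. All 6 libraries with estrogen were below all 6 without it. GLS2 fell by 1.32 under estrogen (SE 0.15, adjusted p = 1.66e-06), to 40.0% of control. GLUL, the gene of the enzyme with the reverse reaction, had 292, 327 and 321 CPM in control and 464, 451 and 439 CPM in estrogen libraries. It had 312, 292 and 312 CPM in CoCl2 cells and 492, 465 and 474 CPM in CoCl2+estrogen cells. GLUL rose by 0.51 (SE 0.06, adjusted p = 1.59e-06), to 1.43-fold of control, with a 95% interval of the log2 change from 0.39 to 0.64.

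In estrogen against control cells, then, 7 of the 9 genes were above 5 counts in libraries of both groups, and all 7 were called, 5 lower (CPS1, ASS1, ASL, GLUD1 and GLS2) and 2 higher (ARG2 and GLUL). ARG1, above that count in control alone, is left out of this tally, and OTC was not tested. The 9 genes were chosen with earlier results of these data known. Among all genes, 68.9% of the 16281 tested genes were called in this comparison, 34.2% lower and 34.7% higher. The median log2 change was -1.15 over the 7 genes and -0.00 over all tested genes.

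CoCl2 alone left no gene of the set past the threshold: edgeR called 0 of 8, 0 had an unadjusted p under 0.05, and DESeq2 called 0. Over all genes 1.44% were called. The log2 changes were -0.06 for CPS1, -0.05 for ASS1, -0.06 for ASL, -0.13 for ARG2, -0.15 for GLUD1, 0.01 for GLS2 and -0.03 for GLUL. The 95% intervals of these 7 genes lay between -0.35 and 0.31. For ARG1, with its few counts, the interval was wider, from -0.42 to 1.10 around 0.34. ARG2 was the 1 gene of the 8 whose CoCl2 and control libraries did not overlap (adjusted p = 0.636), where 16.6% of all tested genes did not overlap.

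With both treatments each of these 7 genes was called against control, 5 lower and 2 higher, where 65.4% of all tested genes were called, 33.2% lower and 32.3% higher. The log2 change was -1.16 for CPS1 (adjusted p = 4.33e-08), -1.05 for ASS1 (adjusted p = 5.42e-07) and -0.89 for ASL (adjusted p = 8.45e-06). It was -1.84 for GLUD1 (adjusted p = 6.31e-12) and -1.46 for GLS2 (adjusted p = 2.47e-05). ARG2 rose by 2.23 (adjusted p = 3.01e-11) and GLUL by 0.58 (adjusted p = 6.92e-07). For ARG1, again above 5 counts in control alone, the fitted change was -2.41 (adjusted p = 0.00236), and -3.03 without CoCl2+estrogen replicate A, which held 4 of the group's 7 counts. These values share the control libraries with those of estrogen alone.

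**Figure D2:**
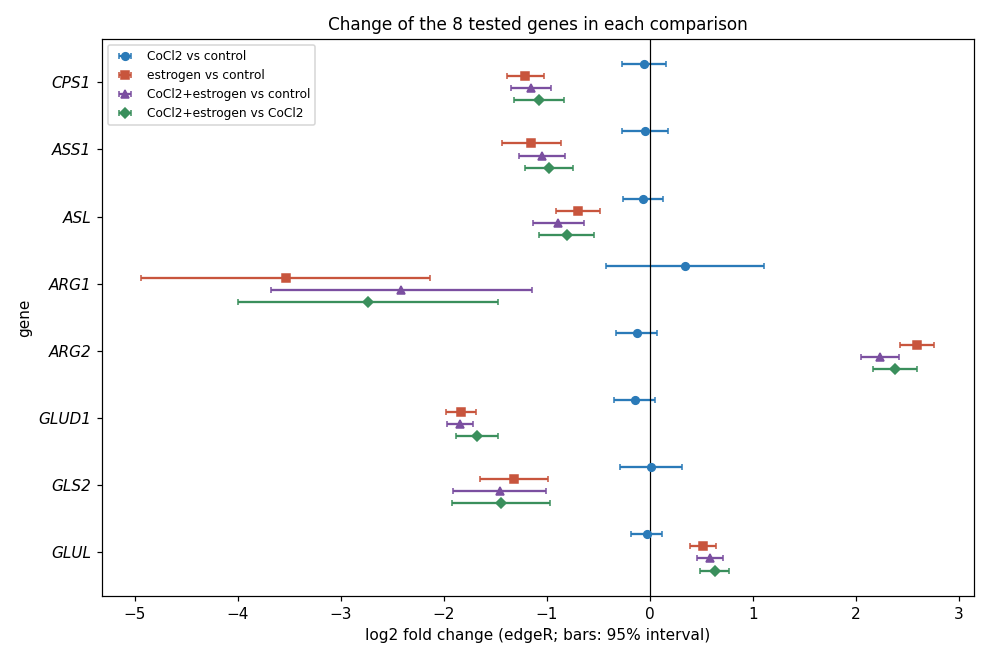
Log2 fold change (horizontal axis) of the 8 tested genes (vertical axis) in 4 comparisons, with 95% intervals from the edgeR fit as bars. The CoCl2 intervals include 0 for all 8 genes, while the 3 comparisons that add estrogen lie to the left of 0 for 6 genes and to the right for ARG2 and GLUL. Among those 6, ARG1 passed the count filter only through the groups without estrogen.

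Estrogen added to CoCl2 was compared with CoCl2 alone in the 6 libraries that did not enter the test of estrogen alone. All 7 genes above 5 counts in both groups were called, 5 lower and 2 higher, where 60.9% of all tested genes were called, 30.8% lower and 30.1% higher. The log2 change was -1.08 for CPS1 (SE 0.11, adjusted p = 2.27e-06), -0.98 for ASS1 (adjusted p = 4.21e-06) and -0.81 for ASL (adjusted p = 7.16e-05). It was -1.68 for GLUD1 (adjusted p = 8.27e-09) and -1.45 for GLS2 (adjusted p = 7.44e-05). ARG2 rose by 2.38 (SE 0.10, adjusted p = 6.71e-10) and GLUL by 0.63 (SE 0.06, adjusted p = 2.1e-06). The fitted change of ARG1, above 5 counts in CoCl2 alone, was -2.74 (adjusted p = 0.00116), and -3.35 without CoCl2+estrogen replicate A.

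CoCl2 added to estrogen moved 1 of the 7 tested genes, where 17.0% of all tested genes were called. That gene was ARG2, which fell by 0.32 (SE 0.07, adjusted p = 0.00597), to 80.3% of its level with estrogen alone. It was lower in all 3 CoCl2+estrogen libraries than in all 3 estrogen libraries. GLUL also did not overlap between these groups, at 465 to 492 against 439 to 464 CPM, but its log2 change of 0.11 was not called (adjusted p = 0.172). Over all tested genes 32.1% did not overlap in this comparison. ARG1 and OTC had too few counts for this test.

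Whether the response to estrogen differed with CoCl2 was tested as an interaction over the 12 libraries. EdgeR called 0 of 8 genes, 0 had an unadjusted p under 0.05 and DESeq2 called 0, where 5.80% of all tested genes were called. The interaction of ARG2 was -0.19, with a 95% interval from -0.43 to 0.06, and that of GLUD1 was 0.18, with an interval from -0.08 to 0.45. For CPS1 it was 0.15, with an interval from -0.16 to 0.46. Over the 7 genes other than ARG1 the intervals reached from -0.69, for GLS2, to 0.57, for ASS1. The interval of ARG1 was wider, from -1.01 to 2.64.

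Ratios of 2 genes within a library do not depend on library scaling. They are given, and on the log2 scale tested, with 0.5 added to each count. The ratio of ARG2 to ARG1 was 20.1 to 26.5 in control libraries and 1033 to 1495 in estrogen libraries, a difference of 5.70 in the mean log2 ratio (exact two-sided permutation p = 0.1, the smallest that 3 against 3 allows). ARG1 had 1 count in each estrogen library, so this ratio is imprecise and depends on the 0.5 added. ARG1 was also above 5 counts only in the groups without estrogen. GLUL to GLS2, the ratio of glutamine making to glutamine splitting, rose from 32.5 to 38.1 in control to 117 to 138 in estrogen libraries, a log2 difference of 1.82 (exact p = 0.1). With 1 library left out at a time, this log2 difference lay between 1.74 and 1.88. The ranges of control and estrogen libraries did not overlap for either ratio. Each ratio pairs genes whose opposite directions are given above, so this separation and its p-value add no separate support.

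**Figure D3:**
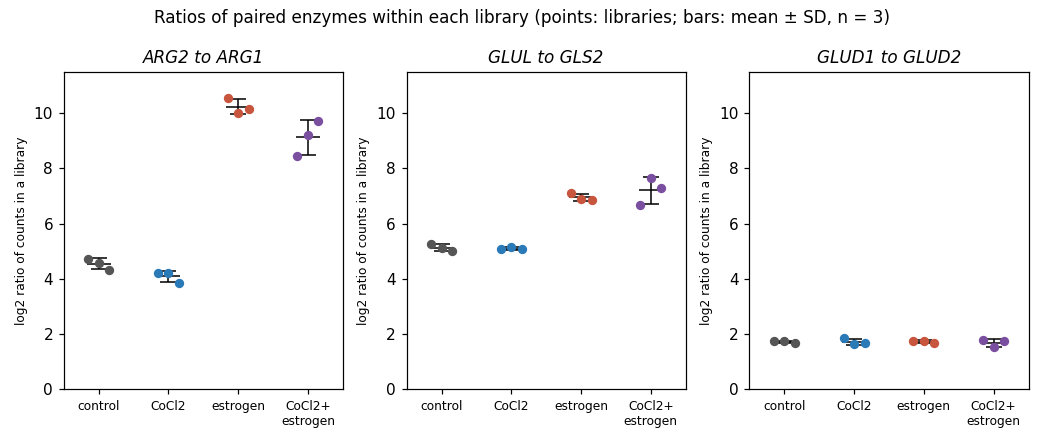
Log2 ratio of the deposited counts of 2 genes within a library (vertical axis, same scale in each panel) by group (horizontal axis), with points for libraries and bars for the mean ± SD (n = 3). ARG2 to ARG1 and GLUL to GLS2 were higher in every library with estrogen than in every library without it, while GLUD1 to GLUD2 stayed between 2.85 and 3.57 as a plain ratio. ARG1 was above 5 counts only in the groups without estrogen.

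A list of 45 further genes was written for the surroundings of the pathway: carriers and cofactor enzymes of the urea cycle, enzymes of ornithine and proline, other enzymes of glutamate, glutamine and aspartate, and carriers of these amino acids. Of these, 39 were above 5 counts in both groups in estrogen against control cells and 33 were called, 15 higher and 18 lower, with a median log2 change of -0.14, beside 68.9% of all tested genes called, 34.7% higher and 34.2% lower. The counts of its groups of genes below are over genes above 5 counts in both groups too and stand beside the same shares. The list was written with earlier results of these data known, so its tallies are not those of genes chosen blind. CoCl2 alone called 1 of 40 (1.44% over all tested genes), GCLC, the catalytic subunit gene of glutathione synthesis, which rose by 0.50 (adjusted p = 0.00202). With both treatments 31 of 40 were called, 12 higher and 19 lower (65.4% over all tested genes).

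Among 6 partners of the urea cycle, 5 were called under estrogen, 1 higher and 4 lower, where 68.9% of all tested genes were called. SLC25A15, the carrier that brings ornithine into mitochondria, fell by 1.19 (SE 0.09, adjusted p = 9.88e-09), from 40.5 ± 3.99 to 17.9 ± 0.436 CPM (SD, n = 3). NAGS, whose product is the obligate activator of CPS1, rose by 0.56 (SE 0.15, adjusted p = 0.00423), from 4.05 ± 0.160 to 6.04 ± 0.389 CPM (SD, n = 3). In CoCl2+estrogen cells the change of NAGS was 0.29 (adjusted p = 0.206), with values from 0.14, without CoCl2+estrogen replicate B, to 0.49, without CoCl2+estrogen replicate C (adjusted p = 0.0283), when 1 library was left out. SLC25A15 fell there too, with a log2 change of -1.09 (adjusted p = 1.72e-07).

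Of 7 genes of ornithine and proline, 6 were called lower and 1 higher under estrogen, where 34.2% of all tested genes were called lower and 34.7% higher. GATM, which uses arginine to start creatine synthesis, had 38 to 45 counts in control and 0 to 5 in estrogen libraries, a fitted change of -3.76 (adjusted p = 1.41e-05) that became -4.98 without estrogen replicate B. GATM is not in this count, since it was above 5 counts in control alone and had to differ to be tested. AGMAT, agmatinase, fell by 1.34 (adjusted p = 4.97e-10). OAT, which links ornithine to glutamate and proline, was the gene that rose, by 0.45 (adjusted p = 5.76e-05). It is named here after its value was seen, as are GOT1, GOT2, SLC38A3 and SLC7A1 below.

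Of 14 other enzymes of glutamate, glutamine and aspartate, 5 were called higher and 6 lower under estrogen, close to the shares of 34.7% and 34.2% over all tested genes. ASNS, which makes asparagine with the nitrogen of glutamine, rose by 1.80 (SE 0.07, adjusted p = 9.48e-12). GLUD2 fell by 1.83 (adjusted p = 5.18e-12), as GLUD1 did, but the counts of these near-identical genes are not independent. BCAT2, the mitochondrial branched-chain aminotransferase, fell by 1.73 (adjusted p = 9.83e-05). The cytosolic aspartate aminotransferase gene GOT1 rose by 1.38 (adjusted p = 1.27e-10) and the mitochondrial one, GOT2, fell by 0.91 (adjusted p = 3.35e-09). In CoCl2+estrogen against control cells, the log2 change was 1.69 for ASNS and 1.62 for GCLC. It was -2.97 for BCAT2, -2.06 for GATM, -1.80 for GLUD2 and -1.53 for GPT, an alanine aminotransferase. The adjusted p of these 6 changes lay between 2.95e-11 for ASNS and 0.00213 for GPT. Counts in the CoCl2+estrogen libraries were few, at 2 to 9 for BCAT2, 6 to 12 for GATM and 6 to 15 for GPT. With 1 library left out at a time, the change ran from -3.39 to -2.59 for BCAT2 and from -1.92 to -1.29 for GPT. For GATM it ran from -2.40 to -1.90.

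Of 12 amino acid carriers, 8 were called higher and 2 lower under estrogen, with a median log2 change of 0.91, where 34.7% of all tested genes were called higher and 34.2% lower. SLC38A2, a carrier of small neutral amino acids with glutamine among them, rose by 1.68 (SE 0.06, adjusted p = 4.54e-12) and by 1.62 with both treatments (adjusted p = 9.15e-12). SLC7A2, a carrier of arginine, lysine and ornithine, rose by 1.47 (adjusted p = 2.34e-11), and the related SLC7A1 rose by 1.28 (adjusted p = 2.99e-11). SLC38A3, the glutamine carrier typical of hepatocytes, was one of the 2 that fell, by 0.92 (adjusted p = 4.46e-08).

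**Figure D4:**
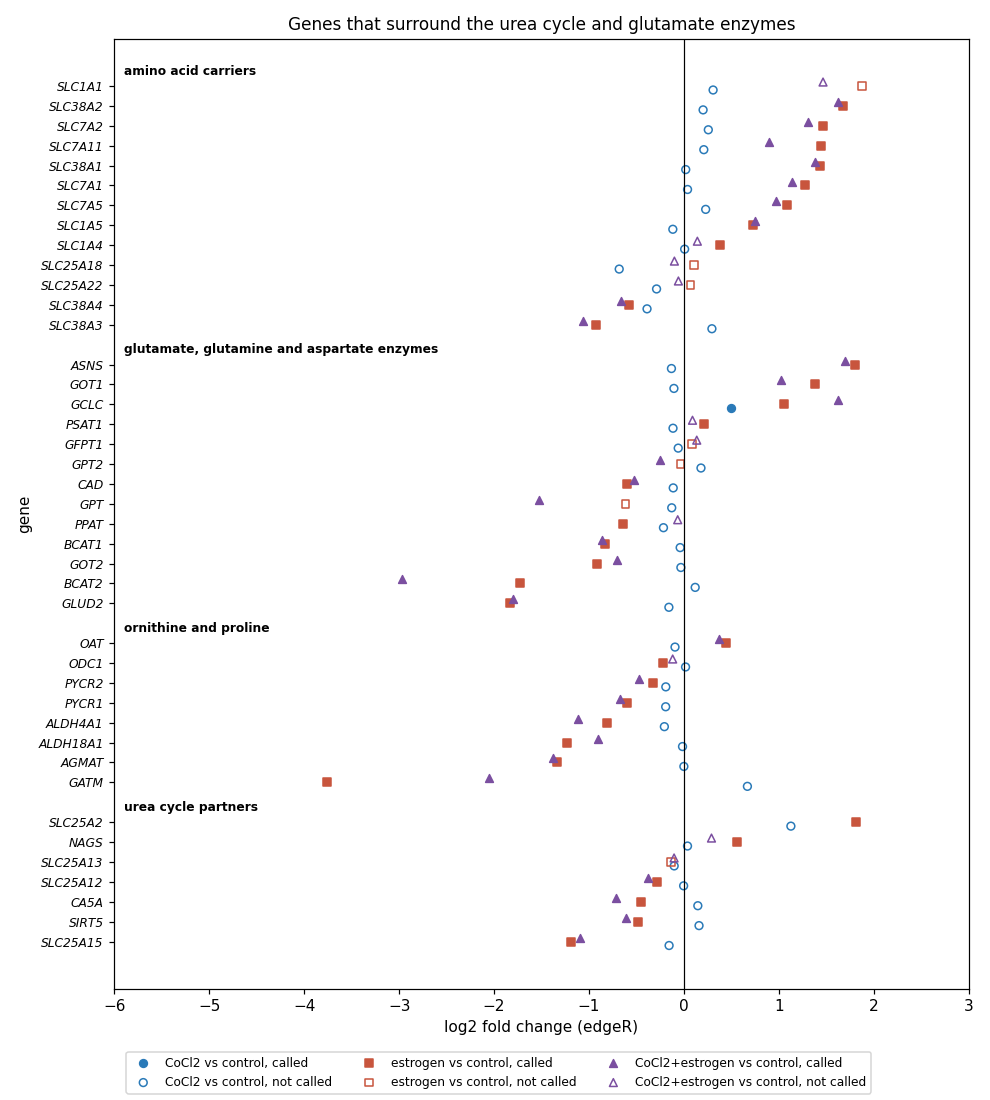
Log2 fold change (horizontal axis) of the tested genes of the surrounding pathway list other than 1 that is not reported (vertical axis, in 4 groups), with filled symbols for called and open symbols for uncalled genes in 3 comparisons with control. Among genes above 5 counts in both groups, 8 of 12 carriers were called higher and 6 of 7 genes of ornithine and proline lower under estrogen, and 1 of 40 genes was called under CoCl2. The list was written with earlier results of these data known.

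The genes whose levels followed those of the set most closely over the 12 libraries were searched among the 13261 genes that averaged 1 CPM or more, by the root mean square difference of centered log2 CPM. These values rest on the same libraries and mostly follow the presence of estrogen, which many genes do. Closest to GLUD1 were ADH5 (0.06) and GLUD2 (0.08), and closest to CPS1 were RBBP9 (0.08) and MCM4 (0.09). ASS1 was nearest to PIGF (0.10) and SLC2A9 (0.11), and ASL to ATP10D (0.09) and TAB1 (0.11). For ARG2 the closest genes were NCEH1 (0.11) and INPP1 (0.11), for GLUL they were RHEB (0.05) and FAM32A (0.05), and for GLS2 they were ERG28 (0.15) and ANKRD65 (0.16). OTC and ARG1 had means below 1 CPM and were not searched. GLUD2 was the 1 gene of the 2 lists among these 14 neighbors, and its counts are not independent of those of GLUD1.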

How the data were processed

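Total RNA from 12 HepG2 libraries was sequenced by the authors after depletion of ribosomal RNA. The submitters' processing notes list Bowtie2 2.2.5, STAR 2.7.8a, Partek and the build hg38. The written methods describe the removal of contaminant reads, alignment and counting in Partek Flow for the mouse samples, and the settings used for HepG2, strand included, are not given in the sources used here. The authors deposited each estimated count per gene unscaled; 23.8% of the values are not whole. Each library has its own column.

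Counts were rounded and fitted by edgeR's quasi-likelihood test (edgeR 4.0.16, limma 3.58.1, under R 4.3.3) on the 6 libraries of each comparison, or on all 12 for the interaction, with TMM scaling, genes above 5 counts in at least 1 library and Benjamini-Hochberg adjustment over all tested genes. The functions were tested on simulated counts. DESeq2 1.42.0, the tool the study names, 3 other scalings, 2 other filters, 1 fit of all 12 libraries, the replicate letter as a block and each library left out were alternatives. Named genes were the 9 genes, NAGS, SLC25A15, GLUD2, up to 4 largest called rises and 4 falls (mean of at least 1 CPM) of the pathway list in each comparison with control, and the 2 nearest genes in level. Of the genes the rule names, 1 is not reported here, though it counts in the list totals. GOT1, GOT2, OAT, SLC38A3 and SLC7A1 were added after their values were seen. Members and lists were chosen with earlier results of these data known. No human genome was used here, so no sequence, coordinate or length is given. Intervals from counts cover counting error only. The mouse livers of the series were not analysed here.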

Additional observations from a re-analysis of the deposited data

How the results depend on the processing

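The 7 genes above 5 counts in both groups kept their calls and directions (5 lower, 2 higher) under every alternative that was run. This held in estrogen against control, CoCl2+estrogen against control and CoCl2+estrogen against CoCl2. ARG1 is left out of this count, since it was above 5 counts only in the groups without estrogen. In CoCl2 against control, where 0 of 8 were called under every alternative, GLS2 was -0.00324 with upper-quartile scaling and -0.051 with library totals alone, and NAGS was -0.021 with library totals alone. Genes called over the whole table in that comparison numbered 345 with DESeq2 and 359 with all 12 libraries in 1 fit, against 229. The pathway list had 7 interaction calls with DESeq2, against 4. Library totals alone moved the median log2 change of all genes to -0.13 for estrogen and -0.10 for CoCl2+estrogen against control, and the interaction calls from 350 of 967 higher to 520 of 1008. The cause of these shifts was not tested.

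Over all groups, replicate letters did not pair the libraries. Of 18 same-letter pairs, 5 correlated above 0.1 (r from -0.31 to 0.29), and 2 of 12 libraries correlated best with their own letter. Control with CoCl2 gave r of 0.21 for A, 0.29 for B and -0.03 for C. Estrogen with CoCl2+estrogen gave -0.04 for A, 0.26 for B and 0.11 for C. Pairs of unlike letters reached 0.35. With the letter as a block, 2 genes in place of 1 were called in CoCl2+estrogen against estrogen, the second being GLUL (adjusted p = 0.0453), and 11 pathway genes in place of 7. The block gave 327 calls over all genes for CoCl2 against control, and 3791 for CoCl2+estrogen against estrogen.

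Leaving out 1 library at a time, the CoCl2 log2 change ran from -0.12 to 0.021 for CPS1, from -0.14 to 0.026 for ASS1, from -0.13 to 0.00096 for ASL, from -0.092 to 0.075 for GLS2, from -0.079 to 0.0034 for GLUL and from -0.087 to 0.14 for NAGS. CoCl2 calls over all genes ran from 136 to 249, with 136 without control replicate A, 147 without control replicate B and 140 without CoCl2 replicate C. Pathway calls under CoCl2 ran from 1 to 2, with 2 without CoCl2 replicate B. In CoCl2+estrogen against estrogen GLUD1 ran from -0.036 to 0.062, GLS2 from -0.42 to 0.12 and calls over all genes from 1671, without estrogen replicate A, to 2493, against 2706 with all libraries. The interaction ran from -0.21 to 0.016 for ASL and from -0.45 to 0.092 for GLS2. Depth limits OTC and ARG1 most, with at most 4 and 27 counts in a library.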
